A study of Mus musculus with 4 samples.

Results

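Gli1, Gli2 and Gli3 encode the zinc finger transcription factors at the end of the Hedgehog pathway. These 3 genes were looked up by symbol among the 55573 genes of each library, and all 3 were among the 12817 measured genes, those with at least 1 FPKM (fragments per kilobase of exon, scaled to the depth of the library) in 1 or more of 4 libraries. In vertebrates a Hedgehog signal relieves Smoothened of inhibition by the Patched receptors, and Smoothened acts at the primary cilium to convert Gli2 and Gli3 proteins into activators. Without a signal Gli3, and to a lesser extent Gli2, is cut into a repressor. Gli1 has no repressor form and is itself switched on by the pathway, so that its RNA is widely read as a measure of pathway output.

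The cells were primary mouse embryonic fibroblasts, grown out of embryos and not an established line. Every culture, controls included, had received 100 nM SAG, an agonist of Smoothened, for 24 h. The groups were Dyrk2-KO (KO), which carries the knockout allele of the kinase gene Dyrk2, wild type (WT), WT cells given an siRNA against Dyrk2 (siDyrk2) and WT cells given the negative-control siRNA (siNeg). The series was made to ask how DYRK2 acts on Hedgehog signalling through GLI2 and GLI3. Each group held 1 library, so each comparison is between 2 libraries with no replicate check, and the labels do not say whether cultures came from separate embryos or how the knockout was made. RNA levels do not show the amount, cutting or phosphorylation of Gli proteins, and cultures without SAG were not analysed here.

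Estimated depth was 19.98 to 23.9 M fragments per library. Dyrk2 stood at 0.57 FPKM in KO, against 6.59 FPKM in WT, and at 0.81 FPKM with siDyrk2, against 7.06 FPKM with siNeg. All 14 fibroblast markers were measured in these cultures, while 1 of 8 epithelial and 1 of 8 endothelial markers reached 1 FPKM, and the tight junction gene Cldn4 and the endothelial receptor gene Tie1 were listed at 0 in every library. Macrophage and leukocyte markers were present, with 12 of 14 measured and none listed at 0 in any library. The KO library stood apart from the others in its Y-linked RNA, with Ddx3y at 8.28 FPKM in KO and at most 0.02 FPKM elsewhere. KO and WT thus differ in Y-linked RNA as well as in genotype, and their parts in KO over WT cannot be told apart. In bulk RNA, fewer cells of a type and less RNA per cell cannot be told apart.

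The 3 genes lie on different chromosomes. In GRCm38 coordinates of GENCODE M21, Gli1 (ENSMUSG00000025407) occupies 127329882 to 127341974 on the minus strand of chromosome 10. Gli2 (ENSMUSG00000048402) spans 118834132 to 119053619 on the minus strand of chromosome 1, and Gli3 (ENSMUSG00000021318) spans 15463235 to 15730026 on the plus strand of chromosome 13. Their exonic lengths in the deposited files, 4995, 6869 and 9589 bases, equal the summed exons of GENCODE M21 exactly.

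Because the Gli genes are related, their annotated transcripts were searched for shared sequence that could have let fragments be assigned to the wrong member. The longest identical run was 25 bases between Gli2 and Gli3, 23 bases between Gli1 and Gli2 and 14 bases between Gli1 and Gli3. Of the distinct 20-base words of Gli2, 0.144% also occurred in Gli3, and 0.119% of those of Gli1 occurred in Gli2. The longest runs of both pairs lie in the longest open reading frame of each transcript. They are shown as the longest exact matches, from the GENCODE M21 transcripts, with the identical run in capitals and 30 bases on either side. Whether other stretches of these RNAs are harder to tell apart was not tested. Over the 83-base windows 73 positions were identical between Gli1 and Gli2, and over the 85-base windows 69 were identical between Gli2 and Gli3.
Gli1 (beside Gli2): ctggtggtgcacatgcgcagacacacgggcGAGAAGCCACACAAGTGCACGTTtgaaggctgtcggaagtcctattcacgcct
Gli2 (beside Gli1): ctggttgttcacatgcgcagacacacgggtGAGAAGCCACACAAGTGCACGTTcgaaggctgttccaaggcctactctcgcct
Gli2 (beside Gli3): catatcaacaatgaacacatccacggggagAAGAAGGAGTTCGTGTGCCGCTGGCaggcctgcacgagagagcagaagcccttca
Gli3 (beside Gli2): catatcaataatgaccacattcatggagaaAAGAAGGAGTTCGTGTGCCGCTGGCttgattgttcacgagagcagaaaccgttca

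Promoter windows of 300 bases, 250 before and 50 after the start site, were taken from RefSeq (GRCm38.p6), where 2 of the 3 Gli genes, Gli2 and Gli3, matched by symbol. They are shown because Gli2 was lower and Gli3 near its control level in the results that follow. Capitals mark the dinucleotide CG. The Gli2 window is chr1:119053570-119053869 on the minus strand and the Gli3 window chr13:15463473-15463772 on the plus strand.
Gli2 promoter: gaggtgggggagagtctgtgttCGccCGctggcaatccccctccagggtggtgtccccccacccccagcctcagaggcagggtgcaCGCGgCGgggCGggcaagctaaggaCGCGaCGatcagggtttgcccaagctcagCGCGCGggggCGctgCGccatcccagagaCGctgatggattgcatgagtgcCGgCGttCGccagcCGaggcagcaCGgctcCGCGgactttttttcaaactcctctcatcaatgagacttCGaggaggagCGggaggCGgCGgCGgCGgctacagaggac
Gli3 promoter: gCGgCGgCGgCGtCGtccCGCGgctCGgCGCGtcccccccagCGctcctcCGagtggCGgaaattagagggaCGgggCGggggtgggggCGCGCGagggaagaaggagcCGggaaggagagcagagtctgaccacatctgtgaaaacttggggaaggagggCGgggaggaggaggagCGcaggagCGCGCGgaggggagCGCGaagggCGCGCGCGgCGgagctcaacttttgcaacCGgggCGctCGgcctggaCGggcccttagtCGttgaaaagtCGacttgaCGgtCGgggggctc
Both windows are rich in CG, with 28 in the Gli2 window and 39 in the Gli3 window, against a median of 7 over 32851 promoter windows. The GLI binding consensus GACCACCCA, searched on both strands, occurred in neither window, and it occurred in 0.253% of all windows of this length.

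Gli1 was far below its control level in both cultures with lowered Dyrk2 and under 1 FPKM in KO, Gli2 stood at less than 0.5 of its control level in both, and Gli3 stayed near its control level in both. Gli1 was at 0.24 FPKM in KO, against 28.81 FPKM in WT, and at 2.25 FPKM with siDyrk2, against 30.17 FPKM with siNeg. Gli2 was at 8.66 FPKM in KO, against 20.38 FPKM in WT, and at 9.05 FPKM with siDyrk2, against 20.80 FPKM with siNeg. Gli3 was at 8.64 FPKM in KO, against 8.05 FPKM in WT, and at 7.07 FPKM with siDyrk2, against 7.98 FPKM with siNeg. For Gli1 and Gli2 both libraries with lowered Dyrk2 lay below both with intact Dyrk2, whereas for Gli3 the KO library was the highest of the 4 and the siDyrk2 library the lowest.

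**Figure D1:**
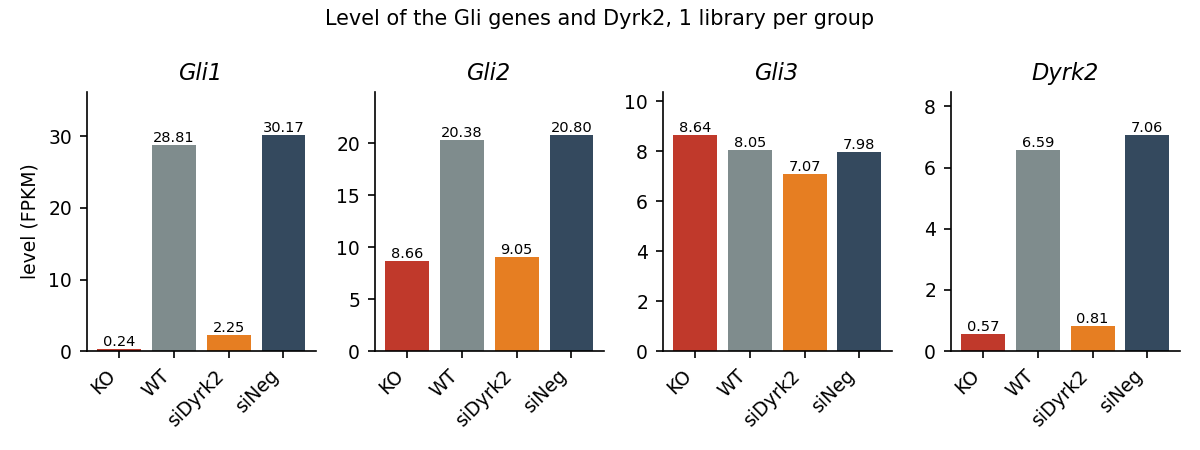
Deposited level (FPKM) of Gli1, Gli2, Gli3 and Dyrk2 in each library, 1 bar per library and 1 library per group, with a separate vertical axis for each gene. Gli1 stands at 0.24 and 2.25 FPKM in KO and siDyrk2, against 28.81 and 30.17 FPKM in WT and siNeg, while Gli3 lies between 7.07 and 8.64 FPKM in all 4.

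In the knockout comparison Gli1, the pathway's own target among the 3, retained 0.833% of its WT level (95% counting interval 0.539% to 1.21%). That level rests on 26 fragments in KO, against 3443 fragments in WT. The counting floor of 3 fragments corresponded to 0.0275 FPKM for Gli1 in KO, so Gli1 was detected there at low depth. No other of the 12817 measured genes had a lower log2 ratio than Gli1 (log2 ratios are on FPKM + 1, which understates differences of low genes), at -4.59.

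Gli2, the main activator that acts upstream of Gli1, retained 42.5% of its WT level in KO (39.8% to 45.3%), with 1301 fragments in KO against 3349 in WT. Its log2 ratio was -1.15. Of all measured genes 1.09% differed by more than Gli2 in either direction in this comparison. Gli3, the gene of the main repressor, was at 107% of WT in KO (101% to 115%), a log2 ratio of 0.09, and 61.7% of measured genes differed by more. Thus 2 of 3 Gli genes were at least 2-fold lower in KO on FPKM + 1, where 1.21% of measured genes were, and 0 were at least 2-fold higher, where 0.57% were (1.78% in either direction). With a pseudocount of 5 FPKM Gli2 was at -0.89 in KO over WT and -0.88 in siDyrk2 over siNeg, short of 2-fold, which leaves 1 of 3 in each comparison.

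Other RNAs moved with the KO library too. Macrophage and leukocyte markers summed to 547 FPKM in KO, against 275 FPKM in WT, and were higher in 12 of 12 measured. The 2 that were at least 2-fold higher were the lysozyme gene Lyz2, at 328.57 FPKM in KO, against 152.06 FPKM in WT, and the protease gene Ctss, at 43.73 FPKM in KO, against 19.76 FPKM in WT. Over all measured genes 0.57% were at least 2-fold higher in KO over WT. G2/M genes, which mark dividing cells, summed to 77.1 FPKM in KO, against 202 FPKM in WT, and were lower in 23 of 23 measured. Of these 19 were at least 2-fold lower, where 1.21% of measured genes were, among them Mki67, Top2a and Plk1. The part of either group in the Gli1 and Gli2 values was not tested.

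In the siRNA comparison both libraries came from cells of WT genotype. Gli1 retained 7.46% of its siNeg level with siDyrk2 (6.50% to 8.49%), with 241 fragments against 3011, and again no measured gene had a lower log2 ratio than its -3.26. Gli2 retained 43.5% (40.8% to 46.5%), with 1335 fragments with siDyrk2 against 2855 with siNeg, a log2 ratio of -1.12. Of all measured genes 1.05% differed by more than Gli2 in either direction.

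Gli3 was at 88.6% of siNeg with siDyrk2 (82.4% to 95.3%), a log2 ratio of -0.15, and 51.4% of measured genes differed by more. Thus 2 of 3 Gli genes were at least 2-fold lower with siDyrk2, where 0.796% of measured genes were, and 0 were at least 2-fold higher, where 0.749% were (1.54% in either direction). In this pair G2/M genes summed to 269 FPKM with siDyrk2, against 292 FPKM with siNeg. Of 23 measured 18 were lower, 4 were higher and 0 were at least 2-fold different. Macrophage markers summed to 394 FPKM with siDyrk2, against 319 FPKM with siNeg, and were higher in 11 of 12 measured.

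Neural and muscle markers summed to 27.6 FPKM with siDyrk2, against 14.6 FPKM with siNeg, and were higher in 5 of 5 measured of 10 listed, with a median log2 ratio of 0.75. The neuronal tubulin gene Tubb3 made up most of the sum, at 18.57 FPKM with siDyrk2, against 8.95 FPKM with siNeg. The muscle genes Des and Tnnt2 were higher as well. Des was at 1.89 FPKM with siDyrk2, against 0.72 FPKM with siNeg, and Tnnt2 at 2.13 FPKM, against 0.63 FPKM. The muscle factor genes Myod1 and Myog were listed at 0 in both. In the knockout pair the same markers summed to 10.6 FPKM in KO, against 13.8 FPKM in WT, and were higher in 3 of 5. The part of these 3 marker groups in the Gli values was not tested.

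**Figure D2:**
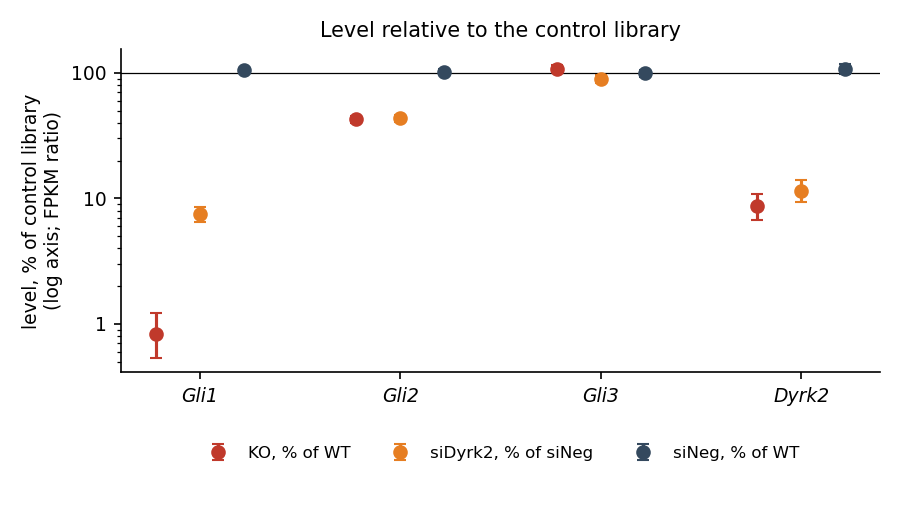
Level of each gene as a percentage of its control library (log axis, ratio of deposited FPKM) for KO over WT, siDyrk2 over siNeg and siNeg over WT, with 95% counting intervals as bars and 1 library per group. Gli2 lies at 42.5% in KO and 43.5% with siDyrk2, while Gli1 lies at 0.833% and 7.46%. The KO and siNeg points share the WT library.

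The proportion of Gli2 that remained did not differ between both comparisons beyond counting error, and that of Gli1 did. The KO over WT ratio of Gli2 divided by its siDyrk2 over siNeg ratio was 0.977 (exact 95% counting interval 0.890 to 1.07). For Gli1 the same quotient was 0.112 (0.0708 to 0.167), so the knockout library held proportionally 8.95-fold less Gli1. For Dyrk2 it was 0.754 (0.547 to 1.03), and for Gli3 it was 1.21 (1.10 to 1.34). Differences between cultures are outside these counting intervals, and no test of the difference between comparisons was possible with 1 library per group.

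**Figure D3:**
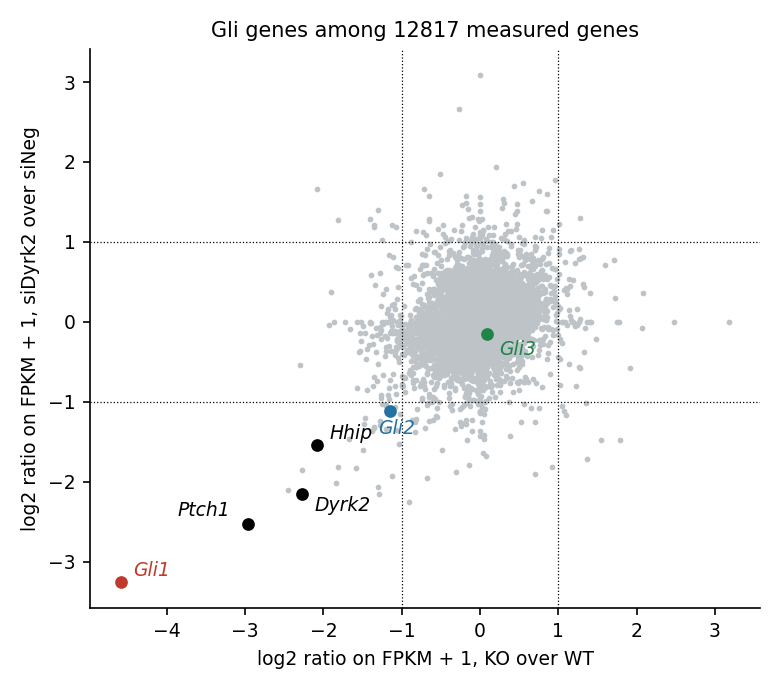
Log2 ratio on FPKM + 1 of each of 12817 measured genes (grey points) for KO over WT (horizontal) and siDyrk2 over siNeg (vertical), with dotted lines at 2-fold. Gli1 is the lowest gene on both axes, Gli2 lies just past the 2-fold lines at -1.15 and -1.12, and Gli3 lies near the centre.

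At least 2-fold lower values in both comparisons occurred for 31 of 12817 measured genes (0.242%), Gli1 and Gli2 among them. Counting genes at or below Gli2 on both axes gave 22, Gli2 included, of which 17 were protein-coding. As a measure of how far genes of like level drift without lowered Dyrk2, siNeg was set against WT for 6051 protein-coding genes of 5 to 40 FPKM in WT. Their middle 95% lay between -0.49 and 0.38 on the log2 scale, with 8 genes at least 2-fold lower and 1 at least 2-fold higher. Of the same genes 60 were at least 2-fold lower and 9 higher in KO over WT, and 32 and 16 in siDyrk2 over siNeg. Their middle 95% was -0.60 to 0.44 in KO over WT and -0.57 to 0.56 in siDyrk2 over siNeg. The Gli2 ratios lay outside these ranges and the Gli3 ratios inside them. The range of siNeg over WT comes from 1 pair and cannot cover the Y-linked difference of KO over WT. Ddx3y was at 0.02 FPKM in WT and 0 with siNeg, against 8.28 FPKM in KO.

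The comparison of both controls put the Gli genes at nearly the same level with and without transfection. Gli1 with siNeg was at 105% of WT (99.7% to 110%), Gli2 at 102% (97.1% to 107%) and Gli3 at 99.1% (92.6% to 106%). The log2 ratios were 0.06, 0.03 and -0.01. In this comparison 0 of 3 Gli genes were at least 2-fold different, where 0.928% of measured genes were (0.562% lower and 0.367% higher). G2/M genes were higher with siNeg than in WT in 23 of 23 measured and macrophage markers in 12 of 12, with 0 of either at least 2-fold different.

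All 4 libraries were then joined in a limma fit with lowered Dyrk2 and the approach (untransfected or siRNA) as terms, which left 1 residual degree of freedom. The residual of the fit reflects only how far both ways of lowering Dyrk2 disagree, not spread between cultures. Limma moderated it with the variance of other genes, to 4.3 degrees of freedom, so an SE is not a gene's own disagreement. Gli1 was lower by a log2 difference of -3.92 (SE 0.335, limma adjusted p = 0.193), rank 12 of 12219 genes by p, and lower in 2 of 2 pairs. Gli2 was lower by -1.13 (SE 0.0971, limma adjusted p = 0.193), rank 13, and lower in 2 of 2 pairs.

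For Gli3 the limma difference was -0.03 (95% interval -0.34 to 0.28, adjusted p = 0.952). No Gli gene passed an adjusted p of 0.05, and neither did any other gene, with 0 of 12219 called by limma (0%). At an unadjusted p under 0.05 limma had 1060 genes (8.68%), of which 544 were lower (4.45% of those fitted), Gli1 and Gli2 among them. Gli1 and Gli2 therefore stand here as large differences between libraries, not as calls.

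The order of the 3 genes within a library also differed. The length of all annotated exons is already divided out in FPKM, so levels can be roughly set against each other. The intervals given here cover counting error only, not which annotated transcripts of a gene were in use. In WT and siNeg Gli1 was highest, Gli2 next and Gli3 lowest: Gli1 was 1.41 times Gli2 in WT (1.35 to 1.48) and 1.45 times in siNeg (1.38 to 1.53), and Gli2 was 2.53 times Gli3 in WT (2.39 to 2.68) and 2.61 times in siNeg (2.45 to 2.78). In KO the ratio of Gli2 to Gli3 did not differ from equality beyond counting error (0.933 to 1.08), and Gli1 was 36.1-fold below Gli2 (24.7 to 55.9). With siDyrk2 Gli2 was 1.28 times Gli3 (1.19 to 1.38), and Gli1 was 4.02-fold below Gli2 (3.51 to 4.64).

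**Figure D4:**
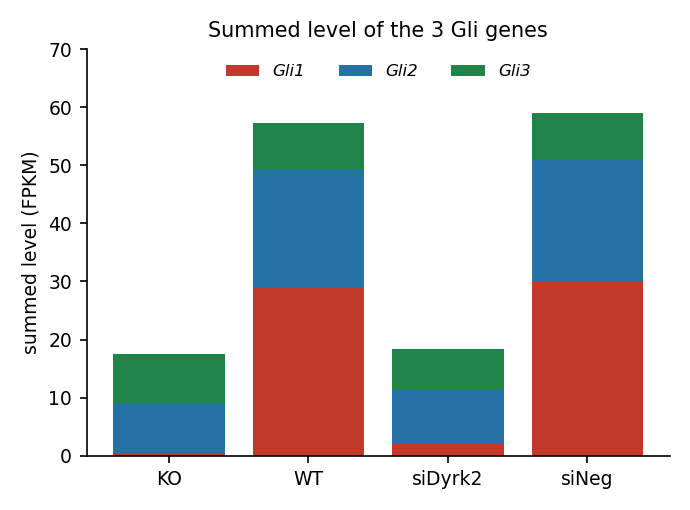
Summed level (FPKM) of Gli1, Gli2 and Gli3 in each library, 1 library per group, stacked by gene. The sum is 17.54 FPKM in KO, against 57.24 FPKM in WT, and 18.37 FPKM with siDyrk2, against 58.95 FPKM with siNeg.

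The summed Gli level was 17.54 FPKM in KO, against 57.24 FPKM in WT, and 18.37 FPKM with siDyrk2, against 58.95 FPKM with siNeg. Gli1 made up 1.37% of it in KO, against 50.3% in WT, and 12.2% with siDyrk2, against 51.2% with siNeg. The share of Gli3 was 49.3% in KO, against 14.1% in WT, and 38.5% with siDyrk2, against 13.5% with siNeg. Gli2 made up 49.4% in KO, against 35.6% in WT, and 49.3% with siDyrk2, against 35.3% with siNeg. Gli3 thus took a larger share of the Gli RNA in both libraries with lowered Dyrk2 than in their controls.

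Among the 12817 measured genes, Gli1 ranked 12712 by level in KO, against 1671 in WT, and 10090 with siDyrk2, against 1612 with siNeg. Genes under 1 FPKM in all 4 libraries are left out, while Gli1 in KO, at 0.24 FPKM, is kept for its level elsewhere. Gli2 ranked 5231 in KO, against 2470 in WT, and 5185 with siDyrk2, against 2435 with siNeg. Gli3 kept a middle rank, at 5239 in KO, against 5620 in WT, and 6116 with siDyrk2, against 5604 with siNeg.

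Measured genes around the Gli loci stayed within 2-fold of their controls. Of 43 protein-coding neighbours within 500 kb of Gli1, 24 were measured and 0 were at least 2-fold different in any of the 3 comparisons, with log2 ratios from -0.41 to 0.57 in KO over WT and from -0.35 to 0.39 in siDyrk2 over siNeg. Over all measured genes 1.78% were in KO over WT, 1.54% in siDyrk2 over siNeg and 0.928% in siNeg over WT, and 0 of 24 is near those shares. Of 6 neighbours of Gli2, 4 were measured and 0 were at least 2-fold different, also near those shares. They were the microtubule-binding gene Clasp1, the activin subunit gene Inhbb, the GTPase gene Ralb and Tmem185b, with log2 ratios between -0.10 and 0.07 in KO over WT. In siDyrk2 over siNeg all 4 were higher, with log2 ratios between 0.03 and 0.28 and a median of 0.21. Inhba, another activin subunit and the 1 such neighbour of Gli3, was at 28.93 FPKM in KO, against 34.98 FPKM in WT, and at 38.36 FPKM with siDyrk2, against 38.33 FPKM with siNeg.

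Genes on the opposite strand overlap exons of Gli1 and Gli3. Whether the counting used the strand is not given in the sources used here, so fragments of such partners cannot be told apart from those of the Gli gene over the shared bases. Arhgap9 shares 62 exonic bases with Gli1 and Gm47200 shares 265. At its own level of 0.89 FPKM in KO, Arhgap9 would place 1.21 fragments on those 62 bases, against the 26 fragments counted for Gli1 there. Gm47200 was listed at 0 in KO. Gm6556 shares 188 bases with Gli3 and stood at 2.07 FPKM in KO, against 1.46 FPKM in WT, which over those bases amounts to 8.51 fragments in KO, against the 1812 of Gli3. No annotated exon of another gene overlapped the exons of Gli2.

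Relatives of the Gli genes were then examined. Of 11 genes on a list of Gli, Glis and Zic zinc finger genes, 7 were measured. Gli1 and Gli2 were the 2 that were at least 2-fold lower in KO and with siDyrk2. At least 2-fold lower values occurred for 1.21% of all measured genes in KO over WT and 0.796% in siDyrk2 over siNeg. Gli1 and Gli2 were already described above, so the list added no further gene at least 2-fold lower. Glis2, a Gli-similar factor linked to kidney disease, was the most abundant of the 7 in KO and with siDyrk2, at 30.61 FPKM in KO, against 27.65 FPKM in WT, and at 27.09 FPKM with siDyrk2, against 27.57 FPKM with siNeg. Glis1 was at 1.82 FPKM in KO, against 1.44 FPKM in WT, and at 1.51 FPKM with siDyrk2, against 1.99 FPKM with siNeg. Glis3 and Zic1 had log2 ratios between -0.314 and 0.204 over both comparisons.

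Among Hedgehog targets a few genes differed strongly and most differed little. Of 25 listed Hedgehog targets and feedback genes, Gli1 itself included, 19 were measured and 14 were lower in KO. Of these 4 were at least 2-fold lower, where 1.21% of measured genes were. The median log2 ratio of the 19 was -0.34, against -0.02 over all measured genes. With siDyrk2 15 were lower, of which 4 reached 2-fold, where 0.796% of measured genes did. The median was -0.21, against 0.02 over all. The 4 were the same in both comparisons and included Gli1, the receptor gene Ptch1 and the ligand-binding antagonist gene Hhip. Hhip was at 0.15 FPKM in KO, against 3.87 FPKM in WT, and at 0.25 FPKM with siDyrk2, against 2.64 FPKM with siNeg. Ptch1 retained 7.54% of WT in KO and 12.2% of siNeg with siDyrk2, so each of its remainders exceeded that of Gli1.

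The other measured targets differed by less than 2-fold on FPKM + 1. On the ratio of FPKM itself the transcription factor gene Foxd1 passed 2-fold in KO, at 0.88 FPKM in KO, against 2.22 FPKM in WT, and so did the survival gene Bcl2, at 2.09 FPKM in KO, against 4.32 FPKM in WT. The transcription factor gene Snai1 had log2 ratios of -0.63 in KO and -0.48 with siDyrk2, and Foxd1 had -0.78 and -0.43. Osr2, a factor of limb and palate mesenchyme, was the highest of the list in KO at 0.87 and had -0.07 with siDyrk2. Bmp4 was at -0.34 and -0.09. The lung and gut mesenchyme factor Foxf1 did not reach 1 FPKM in any library and stood at 0.36 FPKM in KO, against 0.74 FPKM in WT, and at 0.42 FPKM with siDyrk2, against 0.75 FPKM with siNeg.

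Genes that act above the Gli factors were mostly near their control levels. Of 27 listed ligands and membrane components 18 were measured, and 3 were at least 2-fold lower in each comparison, Ptch1 and Hhip among them. Over all measured genes 1.21% were in KO over WT and 0.796% in siDyrk2 over siNeg. Smo, which encodes Smoothened, the target of SAG, was at 33.34 FPKM in KO, against 35.43 FPKM in WT, and at 30.95 FPKM with siDyrk2, against 33.91 FPKM with siNeg. The ligand genes Shh, Ihh and Dhh were at or below 0.08 FPKM in every library. Among co-receptors, Gas1 was higher in both comparisons, at 185.02 FPKM in KO, against 110.58 FPKM in WT, and at 129.65 FPKM with siDyrk2, against 96.72 FPKM with siNeg. The co-receptor genes Cdon and Boc were higher in KO, with log2 ratios of 0.22 and 0.21, and lower with siDyrk2, at -0.36 and -0.30.

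Partners that hold, carry or modify Gli proteins were also largely level. Of 20 binding and ciliary trafficking genes all 20 were measured and 0 were at least 2-fold different in either comparison. Over all measured genes 1.78% were in KO over WT and 1.54% in siDyrk2 over siNeg, so a count of 0 is near that share. Sufu, which sequesters Gli proteins, was at 5.57 FPKM in KO, against 6.42 FPKM in WT, and at 5.09 FPKM with siDyrk2, against 5.58 FPKM with siNeg. Kif7, the ciliary kinesin that positions them, had log2 ratios of -0.12 in KO and -0.07 with siDyrk2. Tulp3, which brings receptors into the cilium, had -0.40 and -0.38. Rab23, a GTPase that dampens the pathway, had 0.35 and 0.49.

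Of 43 listed kinases, phosphatases and ubiquitin ligase genes 42 were measured. Dyrk2 was the 1 at least 2-fold lower in each comparison, where 1.21% of measured genes were in KO and 0.796% with siDyrk2. The median log2 ratio of these 42 was -0.04 in KO over WT and -0.05 in siDyrk2 over siNeg. Spop, the adaptor that targets full-length Gli proteins for degradation, had 0.13 in KO and 0.05 with siDyrk2, and Btrc, the adaptor that recognises phosphorylated Gli3, had 0.02 and 0.05. Prkacb encodes one of the catalytic subunits of PKA, the kinase that primes Gli3 for cutting, and stood at 15.77 FPKM in KO, against 15.78 FPKM in WT, and at 5.62 FPKM with siDyrk2, against 10.72 FPKM with siNeg. Of 23 cofactor genes all 23 were measured and 0 were at least 2-fold different in either comparison. That is near the share over all measured genes, 1.78% in KO over WT and 1.54% in siDyrk2 over siNeg. Smarca4, an ATPase of chromatin remodelling, had the highest log2 ratio of the cofactors, 0.70 with siDyrk2.

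Limb bud genes linked to Gli3 in mouse showed no shared direction. Of 26 listed, Gli3 included, 15 were measured, with 7 higher and 8 lower in each of the knockout and siRNA comparisons. Grem1, a BMP antagonist, was the 1 that was at least 2-fold different, where 1.54% of measured genes were with siDyrk2. It stood at 9.60 FPKM with siDyrk2, against 3.78 FPKM with siNeg. In the untransfected pair it was at 11.65 FPKM in KO, against 14.87 FPKM in WT, so that siNeg was the low library for Grem1. Hand2, a limb patterning factor, had log2 ratios of 0.38 in KO and 0.10 with siDyrk2, and Alx4, another, had -0.32 and -0.58.

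The genes whose pattern over the 4 libraries was most like each Gli gene were found by Euclidean distance between centred log2(FPKM + 1) values, among 7479 protein-coding genes with at least 5 FPKM in their highest library. With 4 libraries such likeness is a description. For Gli1 the nearest were Ptch1 (distance 1.37, against a median of 4.04 over all), the transglutaminase gene Tgm2 (1.72), Dyrk2 and the leptin receptor gene Lepr (2.24). Tgm2 was at 2.29 FPKM in KO, against 16.96 FPKM in WT, and at 5.33 FPKM with siDyrk2, against 26.22 FPKM with siNeg. Lepr was at 0.45 FPKM in KO, against 5.98 FPKM in WT, and at 0.24 FPKM with siDyrk2, against 3.48 FPKM with siNeg. Unlike Gli1 it had a lower level with siDyrk2 than in KO, but its control level also differed between the pairs. Against its own controls its log2 ratio was -2.27 in KO and -1.85 with siDyrk2.

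For Gli2 the nearest were Sorcs2, a sorting receptor gene (distance 0.0812, against a median of 1.15 over all), the imprinted gene Mest (0.108), Mr1, which presents metabolites to T cells (0.113), the chemokine gene Cxcl14 (0.174) and the potassium channel subunit gene Kcne4 (0.232). Sorcs2 was at 14.66 FPKM in KO, against 32.18 FPKM in WT, and at 14.63 FPKM with siDyrk2, against 31.64 FPKM with siNeg. Mest was at 133.62 FPKM in KO, against 309.54 FPKM in WT, and at 154.45 FPKM with siDyrk2, against 322.28 FPKM with siNeg. For Gli3 the nearest were Smarca1 (0.0122), Tbc1d10a (0.0152), Lonp2 (0.0193), Tmem9 (0.0237) and Ripk1 (0.0249), against a median of 0.318, and their log2 ratios lay between 0.07 and 0.10 in KO and between -0.17 and -0.13 with siDyrk2.

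**Figure D5:**
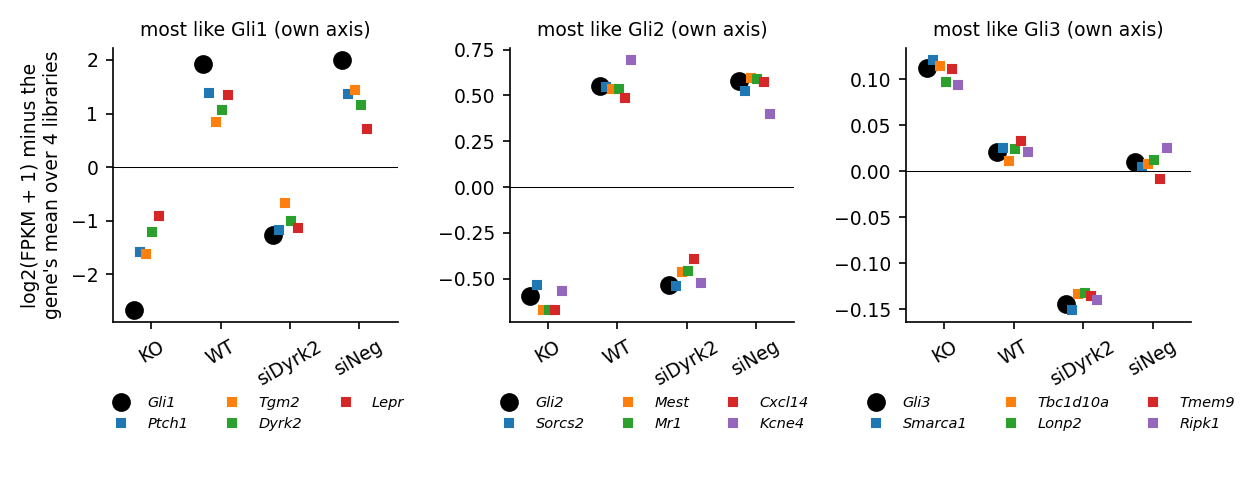
Log2(FPKM + 1) minus each gene's mean over the 4 libraries, for each Gli gene (black) and the protein-coding genes most like it (4 for Gli1, 5 each for Gli2 and Gli3, coloured squares, set side by side), 1 library per group and a separate axis per panel. The Gli2 panel shows KO and siDyrk2 low by like amounts, and in the Gli1 panel Gli1 itself is lower in KO than with siDyrk2.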

How the data were processed

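The deposited values are FPKM, scaled by the authors to exonic length and to the fragments assigned to genes, per the file headers and the sums of the values, with 2 decimals. Tools named in the submitters' processing notes are HISAT2 2.0.1 and cutadapt 1.9.1, with the build GRCm38. The labels' protocols give column-purified RNA with DNase treatment and stranded polyA libraries. The counting program is not given in the sources used here. Of 55573 identifiers 55394 matched GENCODE M21.

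Depth was estimated as the library size that made the FPKM of genes up to 200 bases whole fragments, for 99.0% to 99.7% of 341 to 402 such genes within rounding. The 95% intervals of ratios are exact Clopper-Pearson intervals of the estimated fragments, conditional on their sum, and those of quotients come from the exact conditional odds ratio. They and the floor of 3 fragments cover counting error only.

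Log2 ratios used a pseudocount of 1 FPKM. The joint fit used limma 3.58.1 (R 4.3.3) with a mean-variance trend on genes that reached 1 FPKM in at least 2 libraries, Benjamini-Hochberg adjusted, and was tested on simulated data. Its p-values rest on how far both ways of lowering Dyrk2 disagree, moderated with the variance of other genes, and not on spread between cultures.

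The members and lists were chosen with earlier results of these data known. Named genes were the Gli genes, Dyrk2, the 5 genes most like each, neighbours within 500 kb, and list members at least 2-fold different plus up to 4 more per list by size of ratio. Not every gene of that rule is named, some are not reported here, and others were named for their role after their values were seen, such as Smo, Sufu, Spop, Btrc, Kif7, the ligand genes, Foxf1, Bmp4 and Hand2. The range over genes of like level, the quotients of ratios and the ratios between members were also added after the data were seen.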

Additional observations from a re-analysis of the deposited data

Results flagged for a closer look

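Gli3 went in opposite directions in the 2 comparisons that lower Dyrk2. Its log2 ratio was 0.0911 in KO over WT and -0.154 in siDyrk2 over siNeg. Each direction rests on 1 library per group, both values lay inside the middle 95% of genes of like level, and the difference was not tested.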

How the results depend on the processing

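No paired analysis was possible because each group holds 1 library and the labels number no replicates, and for the same reason no library was left out. Of 60 alternative values for the log2 ratios of the Gli genes, 54 stayed within the counting interval, including both scalings, both rounding edges and the exchange of control libraries (Gli2 at -1.17 in KO over siNeg and -1.09 in siDyrk2 over WT), and none changed direction where a gene was at least 2-fold different. The other 6 followed the pseudocount. With 0.1 FPKM Gli1 was at -6.41 in KO over WT and -3.69 in siDyrk2 over siNeg. With 5 FPKM it was at -2.69 and -2.28, and Gli2 was at -0.89 and -0.88, short of 2-fold.

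The counts of genes at least 2-fold different depended on low genes. They were 73 higher and 155 lower in KO over WT, 96 and 102 in siDyrk2 over siNeg, and 47 and 72 in siNeg over WT. In the same order they were 17, 39, 28, 29, 3 and 12 with a filter of 10 FPKM, 27, 85, 38, 48, 2 and 15 among protein-coding genes, 203, 404, 297, 209, 127 and 213 with a pseudocount of 0.1 FPKM, and 8, 14, 19, 14, 3 and 8 with 5 FPKM. With trimmed-mean scaling each stayed within 1.5 times. Without a filter the counts were the same, which was fixed in advance, because a 2-fold difference on FPKM + 1 needs at least 1 FPKM.

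The limma fit called 0 genes under each of its 7 alternatives. Gli3 has no value with a filter of 10 FPKM, which no library reached. Among the Gli genes, Gli1 in KO rests on the fewest fragments, 26.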
